A study of Mus musculus with 9 samples.

Results

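The 10 genes described here encode 8 Toll-like receptors (Tlr1, Tlr2, Tlr3, Tlr4, Tlr6, Tlr7, Tlr9 and Tlr13), the co-receptor Cd14 and the adaptor Myd88. They were taken by name from the 49315 genes of a table of RNA-seq read counts, and all 10 passed the filter on low counts that left 18492 genes to test. The libraries came from whole brains of wild-type male C57BL/6J mice, 5 young (3 months by the labels) and 4 old (33 months), each mouse giving 1 library. All were made from polyA-selected RNA with ERCC spike-in, and the labels name no treatment. The gene counts of a library summed to 14229259 at the least and 21150439 at the most. An expression value is given as CPM (counts scaled to a common library total) after TMM scaling of the libraries, unless TPM (which also corrects for gene length) is named. A gene is said to have risen or fallen with age only where edgeR's quasi-likelihood test gave a Benjamini-Hochberg adjusted p under 0.05 over all genes tested.

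Toll-like receptors are innate immune sensors that recognize conserved molecules of microbes, and some products of damaged cells. Those at the cell surface read lipids and lipoproteins, those in endosomes read nucleic acids, and all except Tlr3 signal through the adaptor Myd88, which recruits Irak kinases and leads to activation of NF-kB. In the brain, microglia are the main cells that carry most of these receptors. RNA of the whole organ cannot tell more cells of a type from more RNA per cell.

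By annotation (GENCODE M21 on GRCm38), Tlr1 and Tlr6 lie on chromosome 5 (chr5:64924679-64933563 and chr5:64952031-64960097), Tlr2 at chr3:83836272-83841767, Tlr4 at chr4:66827584-66930284 and Tlr3 at chr8:45395665-45411080. Tlr9 and Myd88 are on chromosome 9 (chr9:106222598-106226883 and chr9:119335934-119341411), and Tlr7 and Tlr13 on the X chromosome (chrX:167304929-167330558 and chrX:106143204-106160493). The counts are of reads on the exons of these genes.

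One library stood apart within its group. Young replicate 4 was above each of the other 4 young mice for 8 of the 10 genes, whereas this was so for 20.2% of all genes tested. It was also above every old mouse for 3 of them, Tlr2, Tlr7 and Cd14. A list of 11 measured markers of activated microglia had a mean log2 CPM of 4.55 in young replicate 4, between 2.80 and 2.94 in the other young mice and between 4.23 and 4.65 in the old mice. Each age comparison is therefore given with all 9 mice and without this mouse.

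Across all 9 mice, Tlr13 alone among the 10 genes rose with age, and none of them fell. Of all genes tested, 6.20% rose and 4.83% fell. The log2 fold changes of all 10 genes were above 0 in this test and had a median of 0.70. The value of Myd88 was slightly below 0 on the TPM scale, where the median over all genes was below 0 too (-0.14 with limma on log2(TPM + 1)). Those of Tlr1, Tlr3, Tlr4 and Cd14 were below 0 with microglia markers in the model (-0.094, -0.028, -0.037 and -0.36). With all 9 mice and no such markers, the median over all genes was near 0 (-0.000092) in edgeR's test. Of the 10 genes, 5 had an unadjusted p under 0.05 in that test, against 26.0% of all genes. Without young replicate 4, 6 of the 9 genes that then passed the filter rose, namely Tlr1, Tlr2, Tlr4, Tlr7, Tlr13 and Cd14, and none fell, against 6.33% of 18132 genes that rose and 4.38% that fell. The median log2 fold change of the 9 was then 1.13. These counts describe the remaining mice and are no independent support, since young replicate 4 was singled out by its values for the same genes, and Tlr1 then entered the test through the old mice only.

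**Figure D1:**
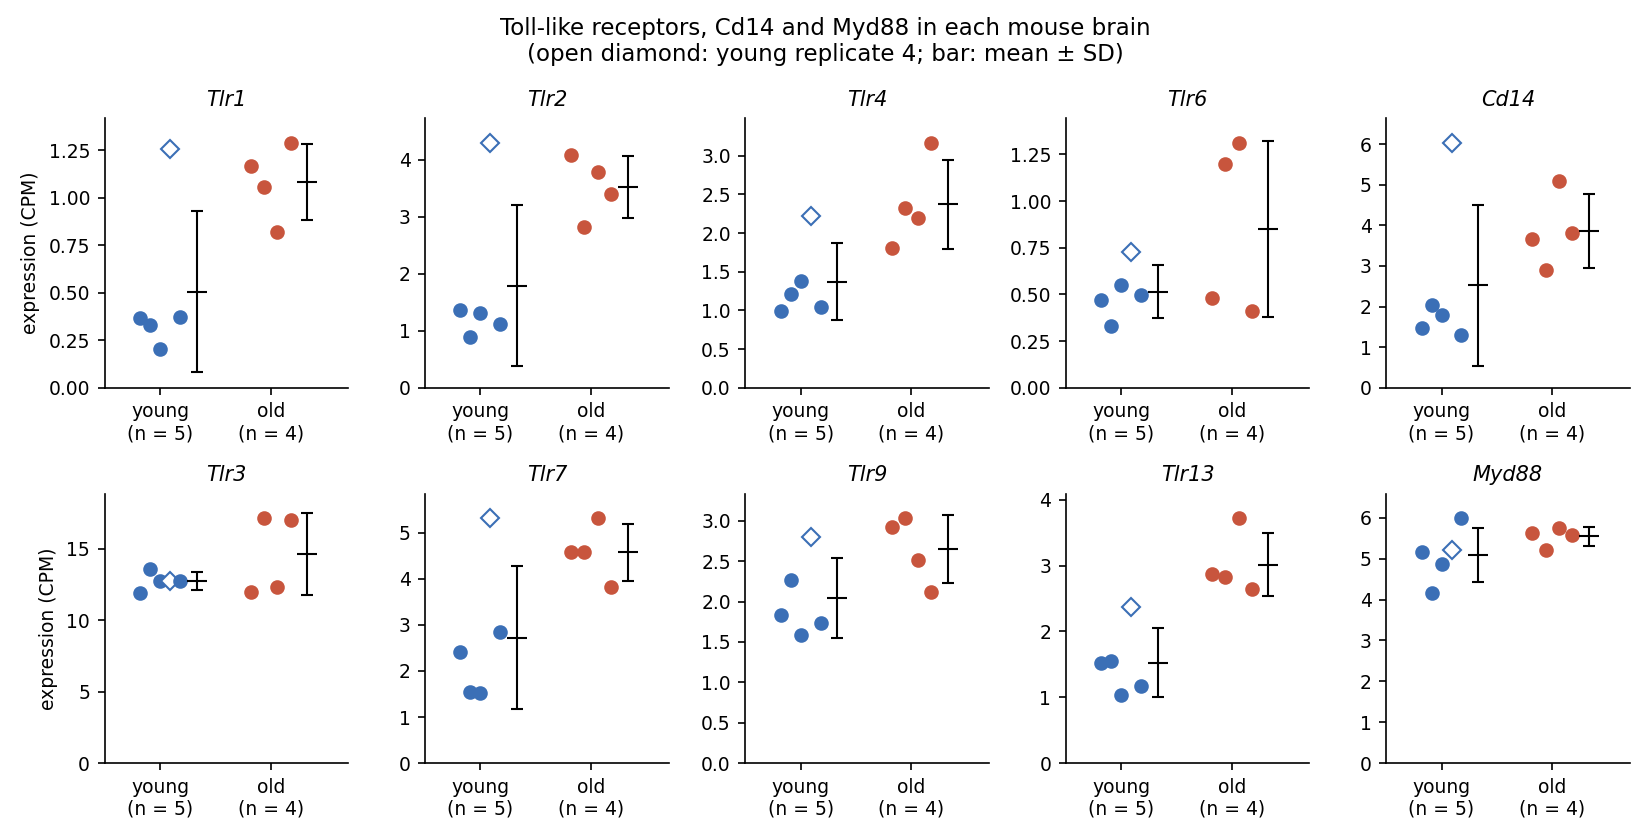
Expression (CPM, linear axis from 0) of each gene in each mouse, young in blue (n = 5) and old in red (n = 4), with the mean and SD as a black bar and young replicate 4 as an open diamond. In the panels of Tlr1, Tlr2, Tlr7 and Cd14 the open diamond lies among or above the old mice, while in that of Tlr13 every old mouse lies above it.

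The surface receptors were low in the brain. Tlr2, which pairs with Tlr1 or Tlr6 to sense bacterial lipoproteins, was at 1.36, 0.885, 1.31, 4.30 and 1.11 CPM in young replicates 1 to 5 and at 4.09, 2.82, 3.78 and 3.40 CPM in old replicates 1, 3, 4 and 5. Young replicate 4 had the highest value of all 9 mice, and the other 4 young mice were below every old mouse. The means were 1.79 ± 1.41 CPM (SD, n = 5) in young and 3.52 ± 0.545 CPM (n = 4) in old brains. Its log2 fold change was 0.94 ± 0.36 (SE, edgeR, adjusted p = 0.113) with all mice and 1.60 ± 0.19 (adjusted p = 0.000175) without young replicate 4, when the old mean was 3.02 times the mean of the remaining young mice.

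Tlr1, the partner of Tlr2 for triacylated lipoproteins, was read at 0.366, 0.332, 0.206, 1.26 and 0.371 CPM in the young and at 1.17, 1.06, 0.821 and 1.29 CPM in the old mice. These values rest on 3 to 26 counts per library. The other 4 young mice were all below the lowest old mouse, and young replicate 4 was within the range of the old mice. Tlr1 reached the level of the filter (0.549 CPM before TMM scaling) in the 4 old mice and in young replicate 4, and in 0 of the other 4 young mice, so that its passing the filter depended on the mice in which it was high. The age difference on the log2 scale was 1.01 ± 0.40 (edgeR, adjusted p = 0.126), and without young replicate 4 it was 1.72 ± 0.30 (adjusted p = 0.00249).

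Tlr4, the receptor for bacterial lipopolysaccharide, had 0.993, 1.22, 1.37, 2.22 and 1.05 CPM in the young and 1.81, 2.33, 2.19 and 3.17 CPM in the old brains. Only young replicate 4 overlapped the old mice, lying above 2 of them. With all mice the log2 fold change was 0.77 ± 0.25 (edgeR, adjusted p = 0.0647), and 1.03 ± 0.22 (adjusted p = 0.00915) without that mouse. Cd14, which hands lipopolysaccharide to Tlr4, was at 1.46, 2.05, 1.79, 6.04 and 1.30 CPM in the young and at 3.67, 2.89, 5.09 and 3.82 CPM in the old mice. Of all 10 genes Cd14 placed young replicate 4 farthest past the old mice, at 1.98 on a scale where 0 is the mean of the other young mice and 1 that of the old mice. Its log2 fold change was 0.58 ± 0.37 (edgeR, adjusted p = 0.356) with all mice and 1.24 ± 0.21 (adjusted p = 0.00197) without young replicate 4.

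Tlr6, the partner of Tlr2 for diacylated lipoproteins, differed from the other surface receptors in its spread. Its values were 0.470, 0.332, 0.550, 0.725 and 0.494 CPM in the young mice and 0.478, 1.20, 1.31 and 0.411 CPM in the old mice, from 6 to 24 counts per library. Old replicates 3 and 4 were above all young mice, while old replicates 1 and 5 were within the young range. The log2 fold change of 0.69 ± 0.38 did not pass the test (edgeR, adjusted p = 0.275), and without young replicate 4 Tlr6 did not pass the filter.

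Tlr1 and Tlr6 are neighbors on mouse chromosome 5, and parts of their coding sequences are identical in the GRCm38 genome. The longest run shared by their transcripts is 229 bases, at chr5:64925537-64925765 in Tlr1 and chr5:64953828-64954056 in Tlr6, both on the minus strand and within a coding exon. It is shown because only uniquely mapped reads were counted, and a read pair that lies wholly within this run matches both genes.
Tlr1 and Tlr6 shared run: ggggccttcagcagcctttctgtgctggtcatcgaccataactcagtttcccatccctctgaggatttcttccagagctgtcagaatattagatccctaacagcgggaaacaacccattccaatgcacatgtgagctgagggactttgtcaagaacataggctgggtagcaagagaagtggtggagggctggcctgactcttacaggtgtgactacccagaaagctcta
Of all 150-base windows, the read length, 4.83% in Tlr1 and 3.94% in Tlr6 occur in both transcripts, mate reads left aside. Not all of these windows lie within the run shown. Among the other pairs of the 10 genes the longest shared run was 18 bases, between Tlr4 and Tlr6, so that no other pair shares a window of this length. The levels of Tlr1 and Tlr6 are uncertain to that extent.

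Among the endosomal receptors were Tlr13, whose call held whichever mouse was left out, and Tlr3, which had the smallest difference of the 8 receptors. Tlr13, which senses bacterial ribosomal RNA, was at 1.52, 1.55, 1.03, 2.37 and 1.17 CPM in young and at 2.87, 2.82, 3.72 and 2.64 CPM in old brains. Every old mouse was above every young mouse, young replicate 4 included. No other of the 10 genes separated the ages in this way, which 6.50% of all genes tested did. Without young replicate 4 the same 6 genes that rose did so, against 8.65% of all genes. The limits given above for those 6 genes hold for this count too. The mean rose from 1.53 ± 0.519 CPM (SD, n = 5) to 3.01 ± 0.482 CPM (n = 4), and the log2 fold change was 0.95 ± 0.22 (edgeR, adjusted p = 0.0128). When each mouse was left out in turn the adjusted p of Tlr13 stayed between 0.00186 and 0.0405. With limma on log2(TPM + 0.1) it was 0.0542.

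Tlr7, a sensor of single-stranded RNA, had 2.40, 1.55, 1.51, 5.31 and 2.84 CPM in the young and 4.57, 4.58, 5.31 and 3.82 CPM in the old mice. The 4 young mice other than replicate 4 were again below every old mouse. For Tlr7 the log2 fold change was 0.72 ± 0.29 (edgeR, adjusted p = 0.133) with all mice and 1.13 ± 0.20 (adjusted p = 0.00304) without young replicate 4. Tlr9, the receptor for unmethylated CpG DNA, overlapped between the ages in any case, with 1.83, 2.27, 1.58, 2.80 and 1.73 CPM in the young and 2.92, 3.03, 2.52 and 2.11 CPM in the old brains. Its log2 fold change was 0.35 ± 0.19 (edgeR, adjusted p = 0.268), and 0.50 ± 0.18 (adjusted p = 0.101) without young replicate 4.

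Tlr3, the receptor for double-stranded RNA, was read at 11.9, 13.6, 12.7, 12.7 and 12.7 CPM in the young and at 11.95, 17.1, 12.3 and 17.0 CPM in the old mice. The young mice were close to each other and young replicate 4 was among them, whereas old replicates 3 and 5 were higher than the rest. The log2 fold change was 0.19 ± 0.11 (95% interval from -0.043 to 0.43, edgeR, adjusted p = 0.296), the same to 2 decimals without young replicate 4 (adjusted p = 0.353). An annotated antisense gene, Gm45542, covers 381 exonic bases of Tlr3, and counting by strand was stated for strand-specific libraries without saying whether these were such libraries.

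Myd88, the adaptor shared by most of the receptors, had overlapping levels at both ages. It was at 5.17, 4.15, 4.88, 5.22 and 5.99 CPM in the young and at 5.63, 5.22, 5.75 and 5.58 CPM in the old brains, and the old mice lay within the young range. On the log2 scale the fold change was 0.13 ± 0.11 (95% interval from -0.12 to 0.37, edgeR, adjusted p = 0.527), and 0.14 ± 0.13 (adjusted p = 0.540) without young replicate 4. With limma on log2(TPM + 1) it was -0.027, where the median over all genes was -0.14. Exons of Acaa1a on the opposite strand cover 290 bases of Myd88, with the same uncertainty about strand.

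**Figure D2:**
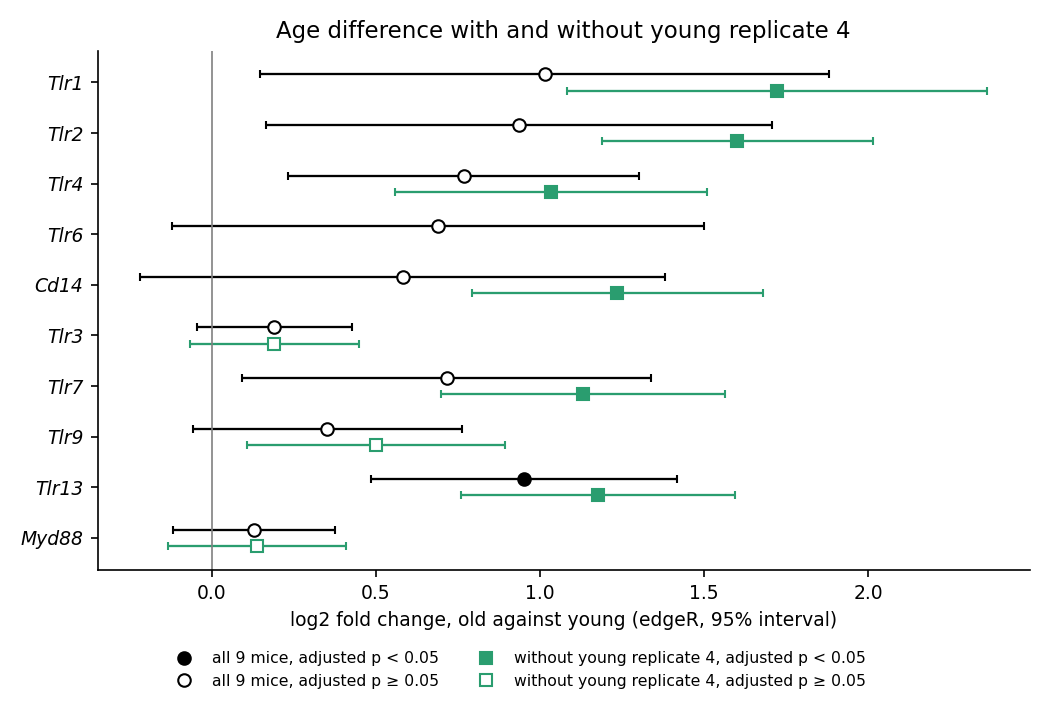
Log2 fold change of old against young mice (edgeR, x axis) for each gene, with its 95% interval, from all 9 mice (black circles) and without young replicate 4 (green squares). Filled symbols mark an adjusted p under 0.05, which is Tlr13 alone with all mice and 6 genes without young replicate 4, while Tlr6 was not tested in the latter.

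The genes also differed in how far young replicate 4 exceeded the other young mice. It had 3.94 times their mean for Tlr1, 3.69 times for Tlr2, 3.66 times for Cd14 and 2.56 times for Tlr7. For Tlr4, Tlr13, Tlr6 and Tlr9 the ratio was between 1.51 and 1.92. For Myd88 and Tlr3 it was 1.03 and 0.998. The genes that differed least between the ages were thus those in which this mouse did not stand apart. Among the genes of intermediate ratio, Tlr13 (ratio 1.80) had the largest age difference, with a log2 fold change of 0.95 from all mice. Those of Tlr4 (ratio 1.92), Tlr6 and Tlr9 were 0.77, 0.69 and 0.35. For Tlr13, young replicate 4 lay at 0.619 on the scale used for Cd14.

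Levels can be set beside each other between genes only by TPM. Tlr3, Myd88 and Cd14 held ranks 1 to 3 of the 10 genes in each of the 9 mice, with medians of 6.20, 5.22 and 3.33 TPM in the young and 6.28, 5.14 and 5.90 TPM in the old. Their ranges overlapped, from 5.33 to 8.32 TPM for Tlr3, from 4.12 to 6.46 TPM for Myd88 and from 1.85 to 8.39 TPM for Cd14, so that their order was not fixed. Tlr2, Tlr7, Tlr9 and Tlr13 held ranks 4 to 7, between 0.644 and 3.44 TPM. Tlr4, Tlr6 and Tlr1 held ranks 8 to 10, between 0.210 and 1.39 TPM. The median of Tlr1 was 0.254 TPM in the young and 0.766 TPM in the old.

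The RefSeq start sites (assembly GRCm38.p6) gave promoter windows for 7 of the 10 genes, 9 windows in all, each from 250 bases before to 50 bases after the start. They were searched on both strands for the letters of a simple NF-kB motif (GGGNNNNNCC), of the PU.1 site GAGGAA and of an interferon-response element (GAAANNGAAA). The stretches of Tlr2, Tlr13 and Myd88 that lie outside annotated exons are shown because these genes differed in their age difference, with motif matches in capitals. That of Tlr2 is chr3:83841768-83841858 (minus strand), that of Tlr13 chrX:106143025-106143203 (plus strand) and that of Myd88 chr9:119340042-119340268 (minus strand).
Tlr2: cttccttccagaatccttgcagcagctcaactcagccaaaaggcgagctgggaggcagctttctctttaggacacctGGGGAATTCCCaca
Tlr13: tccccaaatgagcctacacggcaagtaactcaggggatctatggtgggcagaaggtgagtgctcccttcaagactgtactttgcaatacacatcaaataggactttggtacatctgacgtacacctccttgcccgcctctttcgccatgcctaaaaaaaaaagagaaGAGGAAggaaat
Myd88: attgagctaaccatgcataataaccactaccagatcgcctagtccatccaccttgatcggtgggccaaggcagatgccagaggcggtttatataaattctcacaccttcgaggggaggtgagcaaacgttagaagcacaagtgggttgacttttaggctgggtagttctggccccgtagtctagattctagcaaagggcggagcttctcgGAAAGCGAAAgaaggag
The capitals of Tlr2 are overlapping matches to the NF-kB letters, of which its whole window holds 7 on both strands together. These 7 overlap each other, starting at -173 and -172 and again at -9, -8 and -7 from the RefSeq start. The letters at -172 and at -8 are counted on both strands. The capitals of Tlr13 are a PU.1 match and those of Myd88 a match to the interferon-response letters. Among the 9 windows, 3 held the NF-kB letters, 3 the PU.1 letters and 2 the interferon-response letters, while of 32851 windows of all RefSeq promoters 50.8%, 28.3% and 3.4% did. A match is a description of the letters and no measure of binding.

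Beyond these genes, a list of 69 further genes of the pathway was examined, of which 57 passed the filter. With all 9 mice 10 of them rose and 3 fell, against 6.20% and 4.83% of all genes, and without young replicate 4 17 rose and 2 fell of 55, against 6.33% and 4.38%. Their median log2 fold change was 0.12 with all mice, against -0.000092 over all genes. The count of 17 is no independent support, since young replicate 4 was set apart by its values, also for Ly86, a gene among the 17. Ccl3, also among them, reached the level of the filter in the 4 old mice and in 0 of the other 4 young mice. The endogenous ligands S100a8 and S100a9, which neutrophils carry in abundance and which can act on Tlr4, had log2 fold changes of 3.92 ± 1.02 (edgeR, adjusted p = 0.0249) and 4.56 ± 1.06 (adjusted p = 0.0139). S100a9 was at most 0.556 CPM in the young mice and at 1.70, 0.917, 28.5 and 1.82 CPM in the old mice, so that old replicate 4 set its size. Without this mouse the log2 fold change of S100a9 was 2.09 (adjusted p = 0.0117) and that of S100a8 was 1.28 and did not pass (adjusted p = 0.0864). S100a8 also missed the threshold without young replicate 1, 2 or 5. S100a8 reached the level of the filter in 4 old and 2 young mice and S100a9 in 4 old mice and 1 young mouse, so that their passing it depended on the old mice.

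Among the transcription factors, Irf7, which drives type I interferon genes downstream of Tlr7 and Tlr9, was the 1 of 7 that rose, against 6.20% of all genes. It was at 1.15, 1.99, 1.99, 2.46 and 2.16 CPM in the young and at 6.69, 14.03, 7.71 and 4.52 CPM in the old mice, with no overlap. The log2 fold change was 2.06 ± 0.29 (edgeR, adjusted p = 0.000688). Rel, a subunit of NF-kB, fell by 0.48 on the log2 scale (SE 0.10, edgeR, adjusted p = 0.00967), from 7.54 to 9.08 CPM in the young to 5.57 to 7.22 CPM in the old mice. Of the targets, Cxcl10, an interferon-induced chemokine, had a log2 fold change of 2.17 ± 0.34 (edgeR, adjusted p = 0.00141), and Ptgs2, the inducible cyclooxygenase, one of 0.58 ± 0.14 (adjusted p = 0.0171). Cxcl10 reached the level of the filter in the 4 old mice and in 0 young mice, and so was tested only because it was high in the old. In contrast, 8 of the 15 targets did not pass the filter, among them Tnf, Il1b and Il6.

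Of the 9 inhibitors tested, 3 rose, against 6.20% of all genes. Irak3, a kinase-like protein that dampens Myd88 signaling, had a log2 fold change of 1.01 ± 0.21 (edgeR, adjusted p = 0.00768), Sigirr, a receptor that does the same, 0.78 ± 0.21 (adjusted p = 0.0281), and Nfkbia, the inhibitor that holds NF-kB in the cytoplasm, 0.35 ± 0.073 (adjusted p = 0.00789). The call of Sigirr was lost without young replicate 2 or 3 or old replicate 1 or 5 (adjusted p up to 0.0822). Calls among the kinases and ubiquitin ligases were small in size. Irak1 and Irak2, which Myd88 recruits, rose by 0.20 ± 0.043 and 0.25 ± 0.065 on the log2 scale (edgeR, adjusted p = 0.00951 and 0.0228), and the ubiquitin ligase Traf3 fell by 0.20 (SE 0.050, adjusted p = 0.0194). The other adaptors included 1 that fell, Sarm1, by 0.16 (SE 0.045, adjusted p = 0.0314). With single mice left out, Sarm1 kept its call only without young replicate 5, Irak2 lost it without young replicate 1 or old replicate 3, and Traf3 lost it without old replicate 1, with adjusted p values of up to 0.0713, 0.0671 and 0.0582. The 4 chaperones, the 3 co-receptors and carriers and both further receptors that passed the filter held no call. Of the chaperones, Unc93b1, which carries the endosomal receptors to their compartment, had 0.42 ± 0.14 (adjusted p = 0.0659), and 0.58 ± 0.096 (adjusted p = 0.00197) without young replicate 4.

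**Figure D3:**
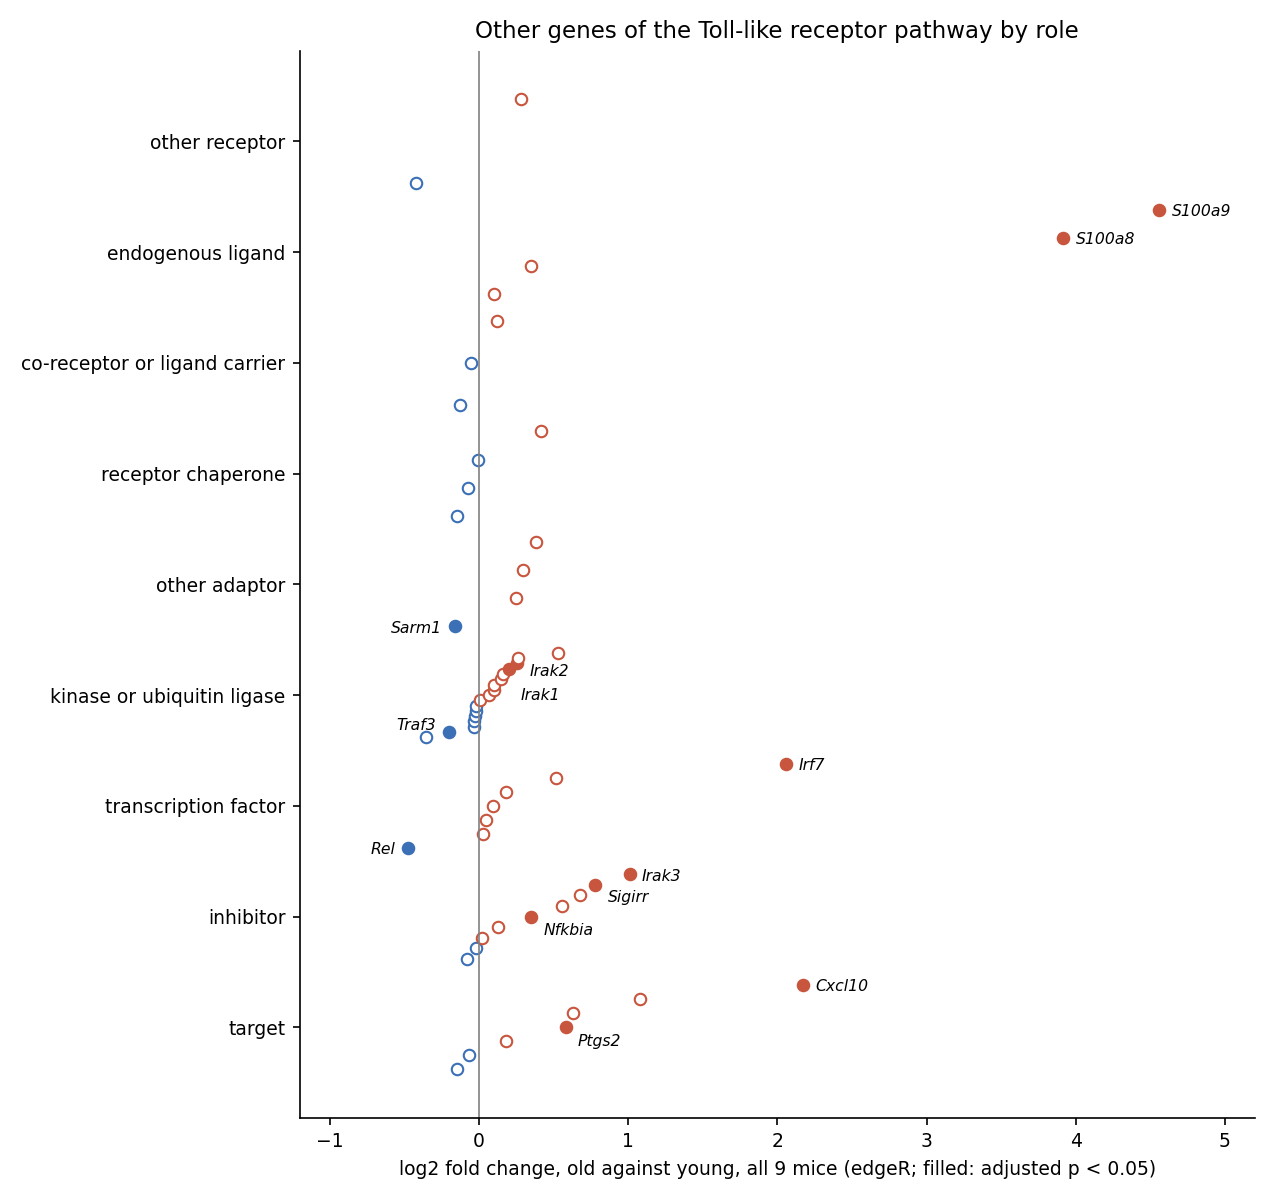
Log2 fold change of old against young mice (x axis, edgeR, all 9 mice) for the 57 further genes of the pathway that passed the filter, in rows by role. Filled points have an adjusted p under 0.05, with 10 genes higher in old mice (red) and 3 lower (blue), and only these are named. S100a8 and S100a9 lie farthest to the right, at 3.92 and 4.56.

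Lists of microglia markers were examined beside these receptors, and their sums were not tested. The summed level of 12 homeostatic microglia markers, all of which passed the filter, was between 263 and 296 CPM in the other 4 young mice, 363 CPM in young replicate 4 and between 347 and 407 CPM in the old mice, and 4 of the 12 rose with age, or 5 without young replicate 4. Of the 11 markers of activated microglia, whose sum was between 345 and 381 CPM, 552 CPM and between 467 and 598 CPM in the same order, 3 rose with all mice (Axl, Gpnmb and Cd68) and 8 without young replicate 4. Border macrophage markers summed to between 27.7 and 29.3 CPM, 31.8 CPM and between 36.4 and 45.5 CPM, and 4 of 8 rose. Without young replicate 4, 3 rose, and Ms4a7, which rose with all mice, did not pass the filter. Of all genes tested, 6.20% rose with all mice and 6.33% without young replicate 4. That mouse was set apart partly by the activated microglia list, so that the count of 8 without it is no independent support. The individual markers of activated microglia were named after their values were seen.

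With the mean log2 CPM of the homeostatic markers added to the model, none of the 10 genes passed the test and none had an unadjusted p under 0.05 (edgeR, 0 of 10 in each case). Of all genes, 1.04% rose in this model and 14.2% had an unadjusted p under 0.05. The median log2 fold change was 0.092, and that of Tlr13 was 0.58 (adjusted p = 0.435). This marker mean was itself nearly separated by age, at 4.04 to 4.22 in the other young mice, 4.38 in young replicate 4 and 4.37 to 4.58 in the old mice, so that 1 young mouse alone overlapped the old mice.

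The same genes were also expressed as a percent of the summed CPM of the 12 markers in each mouse, with no test. Tlr2 amounted to between 0.299% and 0.495% in the other 4 young mice, to 1.19% in young replicate 4 and to between 0.772% and 1.16% in the old mice. Tlr13 was between 0.371% and 0.553%, at 0.653% and between 0.648% and 1.07%. Without young replicate 4, 5 genes lay in every old mouse above every young mouse on this scale, namely Tlr1, Tlr2, Tlr4, Tlr13 and Cd14, against 1.37% of all genes. With all 9 mice none did, against 0.903%. In contrast, Tlr3 was lower relative to the markers in young replicate 4 (3.50%) than in the other young mice (4.33% to 4.84%), and between 3.40% and 4.69% in the old mice. The count of 5 genes is no independent support, since young replicate 4 was singled out by its values for these genes. Tlr1 among them also passed the filter through the mice in which it was high.

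**Figure D4:**
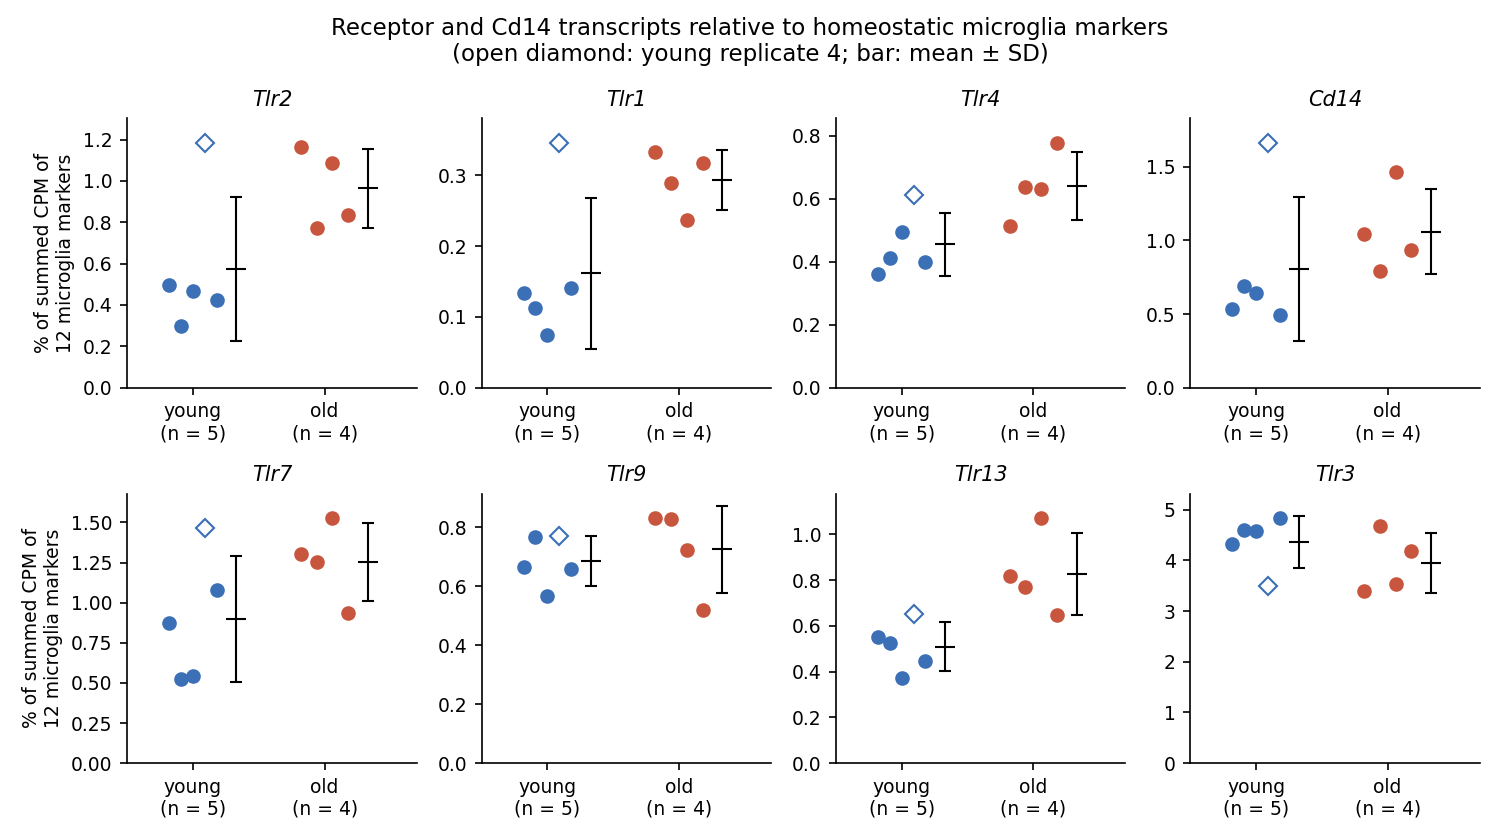
Level of 8 of the genes as a percent of the summed CPM of 12 homeostatic microglia markers in the same mouse (linear axis from 0), young in blue (n = 5) and old in red (n = 4), with mean and SD in black and young replicate 4 as an open diamond. For Tlr2, Tlr1, Tlr4, Cd14 and Tlr13 the other 4 young mice lie below all old mice, and for Tlr7, Tlr9 and Tlr3 they overlap the old mice.

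Other cell types were checked with further lists. Of 9 neutrophil and monocyte markers 1 passed the filter and rose, and their sum was 59.0 CPM in old replicate 4 and at most 3.88 CPM in the other 8 mice. That marker, Ngp, had a mean of 0.410 CPM in the young and 6.46 CPM in the old mice. With single mice left out it passed the filter in 7 fits and kept its call in 3 of them. Without old replicate 4, Tlr13 had a log2 fold change of 0.83 (edgeR, adjusted p = 0.0405) and still passed. Erythroid markers summed to between 86.1 and 116 CPM in the young and between 128 and 409 CPM in the old mice, and 5 of 5 rose. Of the 9 lymphocyte markers 2 passed the filter and 1 of these rose, with sums of at most 9.04 CPM in the young and 18.7 CPM in the old mice. The marker that rose was Igkc, with a mean of 0.233 CPM in the young and 4.83 CPM in the old mice. For Ngp and Igkc the young mean was below the level of the filter (0.549 CPM before TMM scaling). Their passing it thus depended at least in part on old mice. Astrocyte markers held no call, 2 of 9 neuron markers fell, 3 of 7 oligodendrocyte markers rose and 1 fell, and 3 of 6 endothelial markers rose. Of all genes tested, 6.20% rose and 4.83% fell. The part of these lists in the results was not tested.

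Genes with the most similar pattern over the 9 mice were found by the root mean square difference of centered log2 CPM among 14496 genes. Those nearest to Tlr2 were Ptprc, the phosphatase found on all leukocytes (0.20), Slc15a3 (0.21) and the macrophage gene Mpeg1 (0.22). Nearest to Cd14 were Ptprc (0.19), Dock2 (0.25) and the complement receptor C3ar1 (0.25), and nearest to Tlr3 were 4930447M23Rik (0.061), Stk26 (0.082) and Rasa2 (0.085). For Tlr13, given here after its values were seen, they were the macrophage receptor Adgre1 (0.097), Havcr2 (0.14) and the complement gene C1qb (0.14). All of these 9 mice entered the search, so that young replicate 4 weighs on the match for Tlr2, Cd14 and Tlr13. It exceeded the mean of the other young mice by 0.77, 0.59 and 0.98 log2 units for Adgre1, Havcr2 and C1qb. For the genes nearest to Tlr2 and Cd14 the excess was larger, at 1.79 for Ptprc, 1.55 for Slc15a3, 1.54 for Mpeg1, 1.32 for Dock2 and 1.63 for C3ar1.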

How the data were processed

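RNA-seq of whole brain was analysed for 5 young and 4 old mice, grouped by the sample labels. Each table held 1 further column that matched no listed sample, and it was not used. The authors trimmed the reads with Trimmomatic, mapped them with STAR to GRCm38 (mm10) and used featureCounts to count reads that mapped uniquely to exons. Raw counts were deposited as whole numbers for each gene. A table of normalized counts for 17994 genes, used here as a signal, holds the deposited values of each library after division by 1 size factor. TPM was calculated by the authors, and the gene lengths behind it are not given in the sources used here.

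Low counts were removed by filterByExpr of edgeR (minimum count 10, total 15), and TMM factors were computed. The ages were then tested by edgeR's quasi-likelihood method, with Benjamini-Hochberg adjustment over all 18492 genes. Genes past the fold threshold had an absolute log2 fold change over 0.58. Log2 CPM used a prior count of 2. The tools were edgeR 4.0.16, DESeq2 1.42.0 and limma 3.58.1, run in R 4.3.3. The test was checked on simulated counts. Positions and transcripts came from GENCODE M21, promoters from RefSeq. Library totals were between 14229259 and 21150439 counts.

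The genes and lists were chosen with earlier results of these data known. Named are all 10 genes with their values, and from the pathway list up to 3 genes per role and direction with the largest change among those that passed. For genes of at least 1 CPM, the 3 non-members with the nearest pattern and a mean log2 CPM of at least 1 were found. Alternatives were other size factors, DESeq2, other filters, limma on the log2 of the normalized counts + 1, of TPM + 1 and of TPM + 0.1, a replicate block, the microglia marker covariate, a stricter threshold and each mouse left out.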

Additional observations from a re-analysis of the deposited data

Results flagged for a closer look

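Within the groups of 4 or 5 mice, 80 sets of log2 CPM values were examined for 1 mouse far from the rest. In 8 of them a mouse was apart by Dixon's criterion, where about 4 would be by chance, and 5 of the 8 were young replicate 4. This mouse was at 0.45 for Tlr1 (the other young mice between -1.64 and -1.04), at 2.14 for Tlr2 (between -0.00030 and 0.56), at 2.62 for Cd14 (between 0.50 and 1.11) and at 3.60 for Ly86 (between 2.03 and 2.42). Its mean over the activated microglia markers was 4.55, against 2.80 to 2.94 in the other young mice. Old replicate 4 was also apart for Ly86, at 3.59 against 3.24 to 3.28 in the other old mice. Rel was at 2.87 in old replicate 5 and between 2.51 and 2.56 in the other old mice. Irf7 was at 0.34 in young replicate 1 and between 1.07 and 1.37 in the other young mice.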

How the results depend on the processing

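The count of the 10 genes that rose was 1 with all mice and between 1 and 6 when each mouse was left out, 6 being without young replicate 4. It was 4 with no filter on low counts (Tlr2, Tlr4, Tlr7 and Tlr13), 2 with limma on log2(TPM + 1), 3 on log2(TPM + 0.1), 3 on the authors' normalized counts and 0 with the microglia marker covariate. With a log2 fold change over 0.58 as well, the count was 1, between 1 and 6 with mice left out, 4 with no filter, 3 on log2(TPM + 0.1), 3 on normalized counts, 0 with the covariate and 0 at an adjusted p under 0.01. The other size factors, DESeq2 and the stricter filter gave 1. DESeq2 gave no adjusted p for Tlr1 and Tlr6. Tlr13 passed in all of these fits except those on log2(TPM + 0.1) and with the covariate. The median log2 fold change was 0.092 with the covariate and 0.33 with limma on log2(TPM + 1), against 0.70.

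Of the further pathway genes, 3 rose and 1 fell with the covariate, and 0 fell on either TPM scale, where the median of all genes moved to -0.14 (pseudocount 1) and -0.16 (pseudocount 0.1). Between 8 and 17 rose and between 1 and 3 fell when mice were left out, with 17 rises without young replicate 4 and 1 fall without old replicate 1. With the covariate the log2 fold change turned to -0.094 for Tlr1, -0.037 for Tlr4, -0.028 for Tlr3, -0.36 for Cd14, -0.11 for Unc93b1, -0.29 for Pik3ap1, -0.30 for Cd180 and -0.45 for Ccl3. That of Myd88 turned to -0.027 and -0.030 with limma on log2(TPM + 1) and log2(TPM + 0.1). The cause was not tested. Counting each of the 10 genes under each alternative, 80 values kept direction and side of the threshold, 9 newly passed, 2 lost the call and 6 turned, and with single mice left out 80 kept both and 5 newly passed.

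Same-numbered young and old mice deviated together with correlations between -0.12 and 0.17, so that the numbers did not pair the mice. With the replicate block 1 of the 10 genes passed, and Tlr13 had a log2 fold change of 0.99 (edgeR, adjusted p = 0.0130).

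Depth limits Tlr1 and Tlr6, which had 3 to 26 counts per library. Since 5 mice were compared with 4, calls depend on single mice, and p-values set the age difference against the spread between these mice.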
